A study of Saccharomyces cerevisiae with 12 samples.

Results

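The comparison described here sets yeast carrying a temperature-sensitive (ts) rap1 mutation directly against yeast carrying a ts abf1 mutation. It rests on 6 of the 12 arrays of the series, 3 of rap1 ts and 3 of abf1 ts, chosen by their titles, and it is read beside the 6 wild-type arrays, 3 labelled as the control of each mutant. Budding yeast (Saccharomyces cerevisiae) of all 4 groups grew at 25 C and was moved to 37 C for 1 h before total RNA was taken, and the ts proteins lose DNA binding at 37 C. YPD, a rich glucose medium, is named for 3 of the 4 groups and not for the abf1 wild type. The alleles and strain backgrounds are not named in the labels. The mutants and their controls form 2 series, so strain, series and stated medium cannot be told apart in a difference between the wild types.

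Rap1 and Abf1 are essential general regulatory factors, abundant proteins that bind short DNA motifs in promoters and keep nucleosomes away from them. Rap1 is known for the promoters of most cytosolic ribosomal protein genes and of glycolytic genes, for telomeres and for the silent mating-type loci. Abf1 is known for origins of replication, for the silencers and for the promoters of many housekeeping genes, nuclear genes of mitochondrial proteins among them. The direct comparison asks which RNAs stand at different levels after loss of one factor's binding or the other's, under the same heat shift.

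Each gene's RNA was read as a MAS5 signal, a brightness on a linear scale that the authors scaled to a common mean on every array. A signal is therefore relative to the other RNAs of its array, and a loss of all RNA alike would not show. In bulk RNA, fewer cells of a type and less RNA per cell cannot be told apart. Differences are given on the log2(signal + 13) scale as rap1 ts minus abf1 ts, and a feature (a gene, or several genes that share a probe set) was called when limma's adjusted p over all 4687 features was under 0.05. Each difference equals the effect of rap1 ts over its wild type, minus the effect of abf1 ts over its wild type, plus the difference of the wild types (rap1 wt minus abf1 wt). Whether the 3 arrays of a group came from separate cultures is not stated in the labels, and a p-value here reflects no more than the spread among these arrays, part of which may be technical. Arrays of the same replicate number deviated together in the mutants, so values with the number as a block are given where the block changes a result. That block takes in the wild-type arrays, of which abf1 wt array 1 did not deviate with the arrays of number 1 of the rap1 series.

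Signal along control transcripts is a sign of RNA quality, since broken RNA loses signal toward the 5' end. The 3' to 5' ratio of ACT1, the actin gene, was 48.4, 20.1 and 27.98 on the rap1 ts arrays and 32.7, 3.47 and 4.41 on the abf1 ts arrays 1, 2 and 3. The groups overlapped through abf1 ts array 1, and the difference between the geometric means of 30.1 and 7.93 did not pass a 2-sided exact permutation test (p = 0.3, where 0.1 is the smallest possible with 3 arrays against 3). The corresponding means of SPT15, whose protein binds the TATA box, were 15.9 in rap1 ts and 6.46 in abf1 ts (exact permutation p = 0.4). On the rap1 wild-type arrays the ACT1 ratio was 18.2, 6.58 and 2.56, below that of every rap1 ts array. It was 8.73, 11.4 and 17.4 on the abf1 wild-type arrays. With the ACT1 ratio as a covariate the rap1 effect called 0 features higher and 0 lower, against 2 and 17 without it. The abf1 effect called 0 and 3, against 0 and 2. The medians of several lists also moved with the ACT1 covariate, and the values stand beside them.

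Between the mutants, 33 features were higher in rap1 ts than in abf1 ts (0.704% of those tested) and 42 were lower (0.896%) by limma without a block. All 75 differed at least 2-fold, and in all 75 the 3 rap1 ts arrays lay to one side of the 3 abf1 ts arrays, which held for 824 of all features (17.6%). The lower features included genes of arginine and sulfur metabolism, the cell wall and the cytosolic ribosome, and 1 gene of phospholipid synthesis (OPI3). The higher ones included genes of the mitochondrial ribosome and pre-rRNA processing, and 1 gene of RNase P (POP8). One of the 42 names several genes and is not described. The median difference of all features was 0.00, and the 5th and 95th percentiles were -1.03 and 0.86. At an unadjusted p under 0.05 there were 344 higher and 344 lower features.

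With the replicate number as a block over all 12 arrays, 254 features were higher (5.42%) and 183 lower (3.9%), and these held all 75. Of the 254, 173 did not overlap between the groups and 117 differed at least 2-fold, and of the 183 these numbers were 147 and 132. The balance of higher and lower turned with the scaling: the block gave 296 higher and 242 lower under quantile scaling, and 228 and 282 with each array centred on its median. With the same block on the 6 ts arrays alone, chosen after seeing the data, 2 features were higher and 8 lower, 9 of them among the 75, and 616 and 529 at an unadjusted p under 0.05. The counts with a block given below are from the fit over all 12 arrays. Without a block the same scalings gave 48 and 69, and 33 and 53.

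Without a block, the split of the difference set the directions apart. Among the 33 features higher in rap1 ts the largest component was the abf1 effect for 27 and the rap1 effect for 6, and it was the wild-type difference for 0. Their median log2 values were -1.16 for abf1 ts over its wild type and 0.61 for rap1 ts over its wild type. Among the 42 lower features the largest component was the rap1 effect for 36, the abf1 effect for 3 and the wild-type difference for 3, with median values of -1.48 for rap1 ts and 0.28 for abf1 ts over their wild types. Over all features with a difference above 0 the abf1 effect was the largest component in 24.6% and the rap1 effect in 65.8%. Over those below 0 the rap1 effect was the largest in 54.7%. The block over all arrays changed this for the higher features: of the 254 the largest component was the rap1 effect for 168 and the abf1 effect for 86. Of the 183 lower features it was the rap1 effect for 151, the abf1 effect for 14 and the wild-type difference for 18. The ts arrays enter both the call and the effects, so this split is a description and not a test. The wild-type arrays did not enter the difference: the wild types differed in the same direction as the mutants for 10 of the 33 and for 31 of the 42. Over all features this held for 693 of the 2349 with a difference above 0 and for 1278 of the 2338 below 0. The wild-type medians of the 33 and the 42 were -0.16 and -0.15, against -0.11 over all features.

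**Figure D1:**
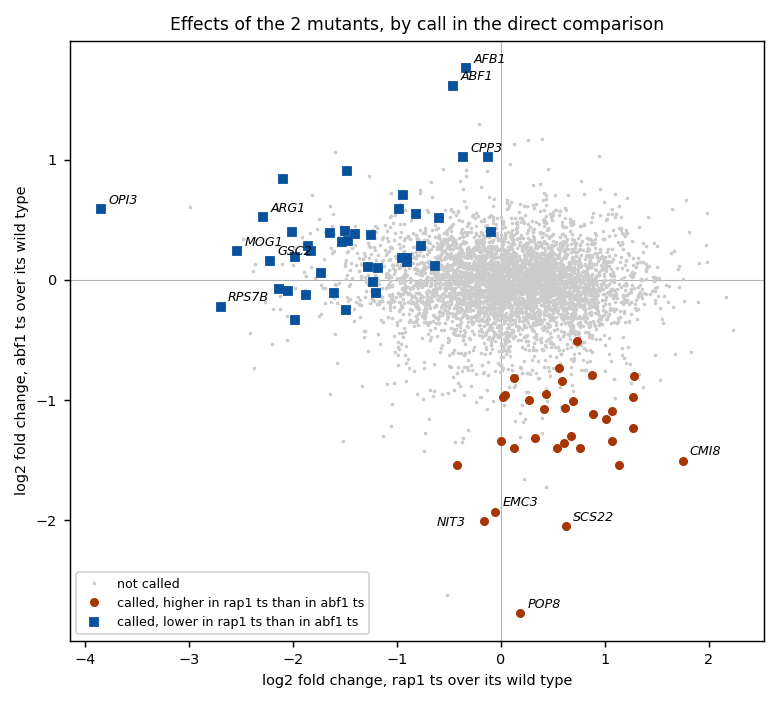
Log2 fold change of rap1 ts over its wild type (x axis) against that of abf1 ts over its wild type (y axis), one point for each of the 4687 features, with the features called in the direct comparison as circles (33 higher in rap1 ts) and squares (42 lower). The circles lie below 0 on the abf1 axis and the squares lie below 0 on the rap1 axis, while AFB1 and ABF1 stand high on the abf1 axis. The position of a called feature follows in part from its call, since both use the ts arrays.

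Tested for itself, with the strain difference removed, the difference of the mutant effects called 0 features higher and 0 lower by limma without a block, and 385 and 211 at an unadjusted p under 0.05. With the replicate number as a block within each series it called 291 features with a higher effect in rap1 ts (6.21%) and 135 with a lower one (2.88%). These included 30 of the 33 and 29 of the 42 features called in the direct comparison. With the block over all arrays the counts were 187 and 86, and they turned to 108 and 117 under quantile scaling and to 71 and 184 with median centring. Across the 4687 features the effects of the mutants, which share no array, had a Pearson correlation of -0.073 and a Spearman correlation of -0.076. The effects spread more widely in rap1 ts (SD 0.648) than in abf1 ts (SD 0.316).

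The gene that stood lowest in rap1 ts against abf1 ts was OPI3, which encodes the methyltransferase of the last steps of phosphatidylcholine synthesis. Its signal was 3945, 2304 and 5289.7 on the abf1 ts arrays and 105, 284 and 197 on the rap1 ts arrays. Every rap1 ts array lay far below every abf1 ts array and below all 6 wild-type arrays. The difference was -4.23 (SE 0.49, n = 3 and 3, limma adjusted p = 0.00273), 18.8-fold, made of a rap1 effect of -3.84, an abf1 effect of 0.59 and a wild-type difference of 0.20. Its divergent neighbour MOG1, which encodes a nuclear import factor that binds the Ran protein, had signals of 3313, 837 and 1726 in abf1 ts and 115, 185 and 182 in rap1 ts (difference -3.32, SE 0.52, adjusted p = 0.00941). All 3 rap1 ts arrays of MOG1 lay below the abf1 ts arrays. Apart from OPI3, 0 of the 18 features on the list of phospholipid synthesis were called, and the median of that list was -0.17 (-0.09 with the ACT1 ratio as a covariate).

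**Figure D2:**
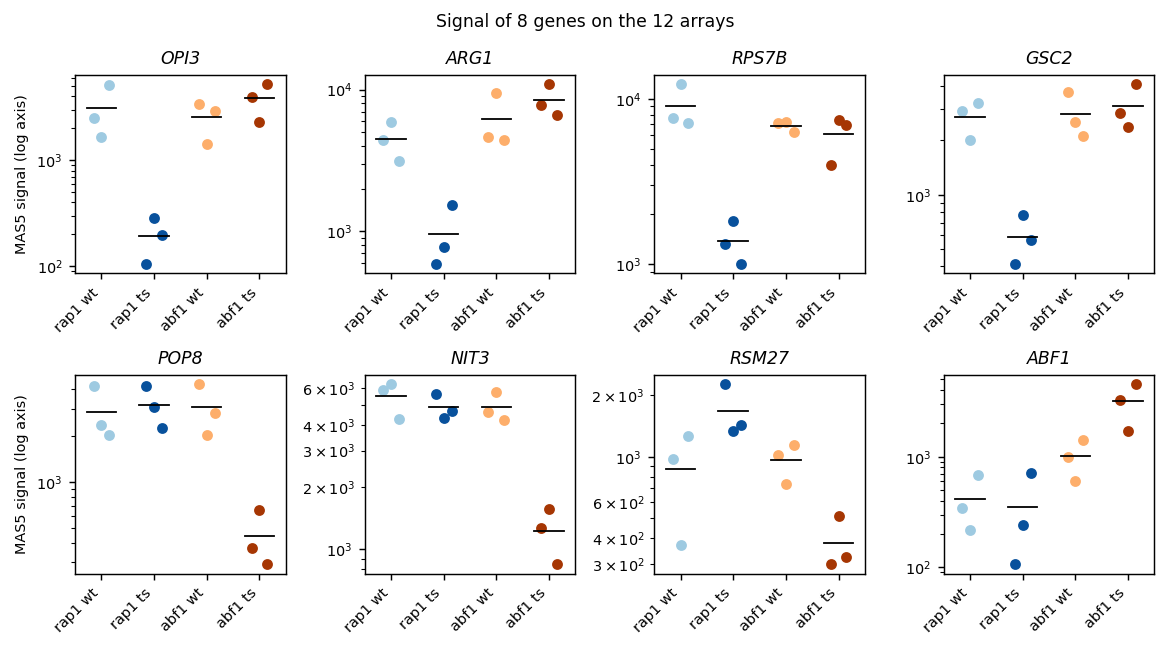
MAS5 signal (log axis) of 8 genes on the 12 arrays, in columns of rap1 wild type, rap1 ts, abf1 wild type and abf1 ts, with a point for each array and a bar at the mean of 3. OPI3, ARG1, RPS7B and GSC2 are low in the rap1 ts column alone, POP8 and NIT3 are low in the abf1 ts column alone, RSM27 is high in rap1 ts and low in abf1 ts, and ABF1 is high in abf1 ts and higher in the abf1 wild type than in the rap1 wild type.

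ARG1, ARG3 and ARG4 of arginine synthesis were lower in rap1 ts. ARG1, argininosuccinate synthetase, had signals of 7845, 11031 and 6659.5 in abf1 ts and 584, 767 and 1522 in rap1 ts. The highest rap1 ts array lay far below the lowest abf1 ts array. The difference was -3.22 (SE 0.39, limma adjusted p = 0.00273), of which the rap1 effect was -2.28 and the abf1 effect 0.52. ARG3, ornithine carbamoyltransferase, had 1850.0, 715 and 1309.8 in abf1 ts against 142, 139.9 and 489 in rap1 ts (difference -2.41, adjusted p = 0.0270), and ARG4, argininosuccinate lyase, had 9556, 8333 and 7982 against 1100.1, 2151 and 3586 (difference -2.07, adjusted p = 0.0127). In both genes rap1 ts array 3 was the highest of its group and still lay below every abf1 ts array. Of the 11 measured features of arginine and proline synthesis, 4 were lower and 0 higher without a block (0.896% and 0.704% of all features), and with the block 5 were lower and 1 higher (3.9% and 5.42%). In this list 10 features lay below 0, and the median difference was -0.57 (-0.85 with the ACT1 ratio as a covariate). The fourth was PRO1, the first enzyme of proline synthesis (difference -1.50, adjusted p = 0.00941), named after its values were seen. PRO3, the last enzyme of the same pathway, went the other way: it was higher in rap1 ts by 2.34 with the block (adjusted p = 0.0117) and not without it (adjusted p = 0.0602). Its signals were 222, 2096 and 774 in abf1 ts and 2534, 4627 and 4239 in rap1 ts, and the largest component was the abf1 effect of -2.62.

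Genes of sulfur and methionine metabolism lay below 0 in 24 of 25 features, with a median difference of -1.06 and medians of -0.77, -0.79 and -1.29 for the replicate numbers 1, 2 and 3. Without a block 2 were lower and 0 higher (0.896% and 0.704% of all features), and with the block 12 were lower, where 3.9% of all features were. MET16, which reduces activated sulfate, had 1674, 1967 and 2209.6 in abf1 ts and 601, 419 and 537 in rap1 ts (difference -1.89, SE 0.30, adjusted p = 0.00941). The groups lay well apart, with the rap1 effect (-0.98) and the abf1 effect (0.59) of opposite sign. MET2, homoserine acetyltransferase, was also lower (difference -1.38, adjusted p = 0.0416), with equal parts from the rap1 effect (-0.63) and the wild types (-0.63), and it was called with 2 of the 12 arrays left out in turn. MET6, methionine synthase, varied widely between arrays, with 659, 722 and 3703 in the rap1 wild type, 262, 340.4 and 3288 in abf1 ts and 73.9, 109 and 335 in rap1 ts. Array 3 was the highest in each of these groups, and the ts groups overlapped. MET6 was called with the block (-2.15, adjusted p = 0.00438) and not without it (0.349). With the ACT1 ratio as a covariate the median of the list was -0.96. The other amino acid synthesis genes had 34 of 42 features below 0 and a median of -0.36. Without a block 0 were called, and with it 8 were lower, against 3.9% of all features.

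Cell wall genes lay below 0 almost throughout, in 38 of 39 features of cell wall integrity and remodelling, with a median of -0.92. Without a block 3 were lower (0.896% of all features) and with it 9 (3.9% of all features), and the difference of effects had 13 lower with the block within series (2.88%). GSC2, a catalytic subunit of glucan synthase, had 2841, 2367 and 4139.6 in abf1 ts and 412, 768 and 562 in rap1 ts. The wild types had 3739, 2536 and 2109.9 and 2905, 2019 and 3214 in the abf1 and rap1 series, so the 3 rap1 ts arrays were the lowest of the 12. The difference of -2.40 (SE 0.32, adjusted p = 0.00343) was nearly all rap1 effect (-2.22). CIS3, a covalently bound wall protein, was also lower (difference -1.39, adjusted p = 0.0377), as was SCW10, a glucanase-like wall protein (-1.20, adjusted p = 0.0442). These had no call when most single arrays were left out: CIS3 was called in 3 and SCW10 in 2 of 12 such fits, and GSC2 in 12. The list medians for replicate numbers 1, 2 and 3 were -1.33, -0.25 and -1.13. Without rap1 ts array 1 the median was -0.49, and with the ACT1 ratio as a covariate it was -0.44.

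Other genes lower in rap1 ts lay outside these lists. ATG41, an autophagy gene, had signals of 1123, 2176 and 1981 in abf1 ts and 121, 223 and 119 in rap1 ts (difference -3.40, SE 0.52, adjusted p = 0.00800). SCP1, a calponin-like actin-binding protein, had 1523, 999 and 1188 against 351, 162 and 159 (difference -2.47, SE 0.32, adjusted p = 0.00312). Neither gene overlapped between the groups, and both were led by the rap1 effect (-2.09 and -1.98). GPG1 (-2.98, adjusted p = 0.0206) and LCL2 (-2.45, adjusted p = 0.0274) were lower as well, GPG1 with 1 rap1 ts array far above the others (320.1, 1833 and 334 against 6498, 4266 and 3754 in abf1 ts). MNC1 was lower with the block only (-2.73, blocked adjusted p = 0.0142 and 0.0550 without). YMR027W is named after its values were seen, as one of the genes called whichever array was left out: its signals of 2538, 1963 and 2243 in abf1 ts and 505, 665 and 473 in rap1 ts gave -2.02 (SE 0.24, adjusted p = 0.00273).

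Cytosolic ribosomal protein genes differed little as lists in the direct comparison and strongly in a few members. The 44 features of the small subunit had a median of -0.07 with 29 below 0, and the 63 of the large subunit a median of -0.07 with 38 below 0. The difference of the mutant effects lay below 0 for 35 and 48 of them (42.4% of all features). Its medians were -0.22 and -0.19, against 0.13 over all features. The wild types went the other way, with medians of 0.13 and 0.11 against -0.11 over all features. In each list 2 features were lower without a block (0.896% of all features) and 5 with it (3.9%), and 0 were higher. The list medians with the ACT1 ratio as a covariate were -0.19 and -0.16. RPS7B, of the small subunit, had 3966, 7450.4 and 6892 in abf1 ts and 1324, 1827 and 999 in rap1 ts, while the wild types had 7103, 7249 and 6291 in the abf1 series and 7611, 12359.5 and 7147 in the rap1 series. Its 3 rap1 ts arrays were the lowest of the 12, and the difference of -2.12 (SE 0.31, adjusted p = 0.00538) lay on the rap1 effect of -2.69. RPL7A (-1.58, adjusted p = 0.0206), RPS1A (-1.47, 0.0356) and RPL14B (-1.28, 0.00941) were also lower. Their probe sets are not of the plain unique type (suffix i for RPL7A and RPS1A, f for RPL14B). Their values may be shared with a paired gene, which was not tested. Without rap1 ts array 3 the list medians were 0.04 and 0.06. The 5 ribosomal protein features whose promoters are known for Abf1 in place of Rap1 had differences from -1.09 to 0.56, with 0 called either way. Their median difference was -0.05, and -0.35 without abf1 ts array 1. The rap1 effect lay below 0 in all 5 (median -0.59) and the abf1 effect in 4 (median -0.12).

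Among the genes higher in rap1 ts, POP8 stood first. It encodes a protein subunit of RNase P and RNase MRP, which cut the precursors of tRNA and rRNA. The signal was 372, 659 and 289 in abf1 ts and 4213, 3083 and 2244 in rap1 ts. The abf1 wild type had 4345, 2029.6 and 2799.5 and the rap1 wild type 4216, 2331 and 2011, so the 3 abf1 ts arrays were the lowest of the 12. The difference was 2.85 (SE 0.40, adjusted p = 0.00425), of which the abf1 effect was -2.77 and the rap1 effect 0.19. Of the 9 RNase P and RNase MRP features 1 was higher without a block (0.704% of all features) and 3 with it (5.42%), and the median of the list was 0.06 (0.00 with the ACT1 ratio as a covariate).

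NIT3, of the nitrilase family, had 1266, 1572 and 844 in abf1 ts and 5628, 4329.6 and 4659 in rap1 ts (difference 2.01, SE 0.27, adjusted p = 0.00312), with an abf1 effect of -2.01 and a rap1 effect of -0.16. POP8 and NIT3 were the higher genes called whichever single array was left out. SCS22, a membrane protein of contacts between the endoplasmic reticulum and the plasma membrane, had 230.5, 885 and 312 against 1286, 2509 and 1946 (2.17, adjusted p = 0.0234), and EMC3, of a complex that inserts membrane proteins, had 438, 1011 and 237 against 1820.4, 2040.2 and 1599 (1.90, adjusted p = 0.0376). In both genes abf1 ts array 2 was the highest of its group and lay closest to rap1 ts. The same held for SRP14, a signal recognition particle subunit (404, 1463 and 704 against 3268, 2145 and 2879.6, 1.84, adjusted p = 0.0356), and for DUG1, a dipeptidase of glutathione breakdown (1120.2, 3984 and 2911 against 6996, 8537 and 8966, 1.78, adjusted p = 0.0428). The abf1 effects of these 4 genes were -2.05, -1.93, -1.40 and -1.54.

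Mitochondrial ribosomal protein genes were the list that lay highest in rap1 ts, with 68 of 73 features above 0 and a median difference of 0.58. Without a block 6 were higher and 0 lower (0.704% and 0.896% of all features), and with the block 12 were higher (5.42%). RSM27, of the small subunit, had 298, 514 and 325 in abf1 ts and 2272, 1330.1 and 1432 in rap1 ts (2.11, SE 0.42, adjusted p = 0.0267). MRPL32, of the large subunit, had 375, 611 and 320.4 against 1766, 1665 and 1861 (2.04, adjusted p = 0.0267). In these genes both effects contributed: the rap1 effects were 1.06 and 1.13 and the abf1 effects -1.34 and -1.54. IMG2 (518, 784 and 459.8 against 2261, 1785 and 1932, 1.77, adjusted p = 0.0267) and SWS2 (819.6, 1339.7 and 665 against 2895, 3306 and 3125, 1.77, adjusted p = 0.0167), also mitochondrial ribosomal proteins, had the same form. The wild types went against the list, with a median of -0.50 (rap1 wt minus abf1 wt), and the median difference of effects was 1.07, with 23 features higher and 0 lower by the block within series (6.21% and 2.88% of all features). The replicate numbers differed: the direct medians were 0.05, 0.82 and 0.69 for numbers 1, 2 and 3, and -0.17, 0.14 and 0.08 over all features. With the ACT1 ratio as a covariate the median was 0.37.

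Outside the ribosome of the organelle, ATP18 and MDL2 were higher in rap1 ts. ATP18, a subunit of ATP synthase, had 2704, 5598 and 2588 in abf1 ts and 13305, 11318 and 9075 in rap1 ts (1.70, SE 0.29, adjusted p = 0.0134), and MDL2, an ABC transporter of the inner membrane, was higher by 1.47 (adjusted p = 0.0416). The 38 features of the respiratory chain and ATP synthase had a median of -0.13, with 25 below 0, and ATP18 was the only one called without a block. CMI8 had 505, 496 and 533 in abf1 ts and 2089, 2659.8 and 2317 in rap1 ts (2.17, SE 0.48, adjusted p = 0.0402). It had the largest difference of mutant effects in the direction of rap1 ts among the named genes (3.25), since the wild types differed the other way (-1.08).

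Ribosome biogenesis genes lay above 0 in 68 of 74 features, with a median of 0.55. Without a block 2 were called higher (0.704% of all features) and with the block 16 (5.42%), and 0 were lower. RRP1, of large-subunit assembly, had 2006, 1997 and 1909 in abf1 ts and 9434, 4259 and 5015 in rap1 ts (1.57, SE 0.29, adjusted p = 0.0206), and the RNA helicase gene DBP9 had 3026, 2831 and 2982 against 10695, 5609 and 5858 (1.26, adjusted p = 0.0356). In both, the 3 abf1 ts arrays lay within a narrow range and rap1 ts array 1 stood above the other rap1 ts arrays. ESF1, of pre-rRNA processing, showed the same order (1268, 1364 and 1466 against 6961, 3342 and 4336, 1.76, adjusted p = 0.0186). Here the wild types hardly differed (list median 0.03), and the medians of the effects were 0.24 in rap1 ts and -0.26 in abf1 ts. With the ACT1 ratio as a covariate the list median was 0.25. RNA polymerase subunits had a median of 0.21 (26 of 31 above 0, 0 called without a block, and 2 higher with it against 5.42% of all features), which was 0.07 with the covariate.

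**Figure D3:**
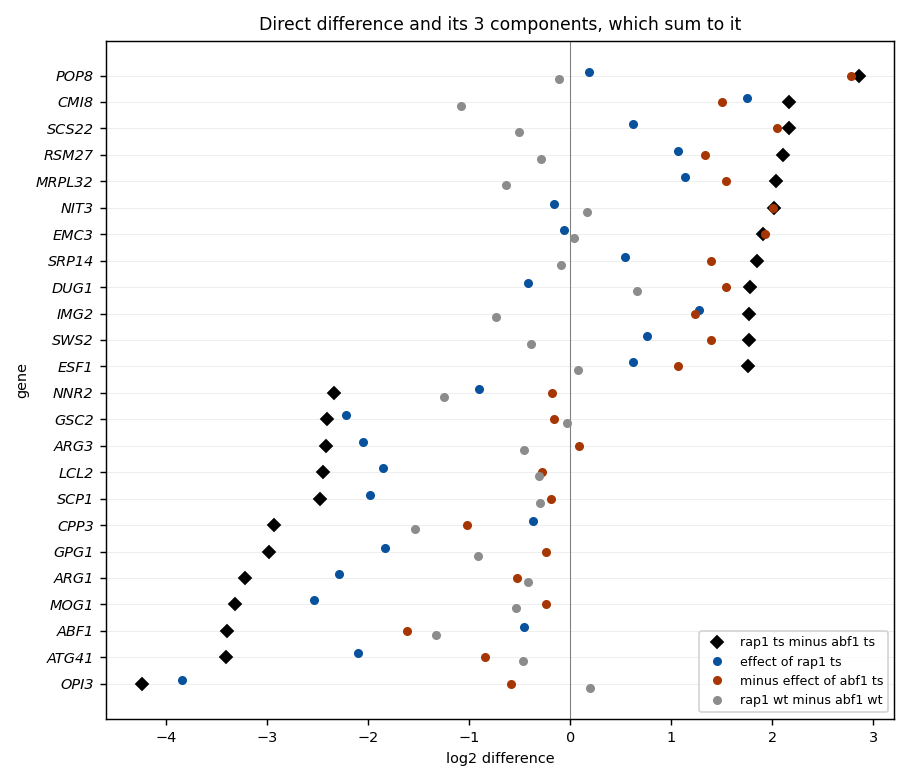
The direct log2 difference (diamonds) and its 3 components (circles: effect of rap1 ts, minus the effect of abf1 ts, and rap1 wt minus abf1 wt) for the 12 genes of largest difference in each direction among those called, ordered by the difference. The 3 circles of a gene sum to its diamond; the abf1 component reaches furthest right for POP8, SCS22, NIT3 and EMC3, the rap1 component furthest left for OPI3, MOG1, ARG1 and GSC2, and the wild-type component furthest left of the 3 for CPP3 and NNR2.

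For a few called genes the largest part of the difference came from the wild types. CPP3 had 8688, 8474 and 10681 in abf1 ts, 4210.2, 5033 and 4406 in the abf1 wild type, 1476, 1449.9 and 1757 in the rap1 wild type and 541, 1972 and 1622 in rap1 ts. All 6 arrays of the abf1 series lay above all 6 of the rap1 series. Of its difference of -2.93 (SE 0.38, adjusted p = 0.00312) the wild types gave -1.54, the rap1 effect -0.37 and the abf1 effect of 1.02 the rest. NNR2, a repair enzyme for nicotinamide nucleotides (-2.33, wild types -1.25), and CAR1, arginase (-1.26, wild types -0.77), also had the wild types as their largest part. The wild-type differences of CPP3, NNR2 and CAR1 had adjusted p of 0.667, 0.965 and 0.965, and the comparison of the wild types called 0 features higher and 0 lower, with 18 and 138 at an unadjusted p under 0.05. CAR1 is also the only member called without a block of the 27 genes that earlier work tied to Abf1 sites, whose median was -0.05 (0.04 with the ACT1 ratio as a covariate). With the block, CAR1 was lower and 1 other gene of that list higher (3.9% and 5.42% of all features).

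The genes of the factors behaved differently. ABF1 had signals of 3263, 1707 and 4557 in abf1 ts and 106, 242 and 712 in rap1 ts, and of 1001, 603 and 1423 in the abf1 wild type and 344, 216 and 682 in the rap1 wild type. It was higher in abf1 ts than in rap1 ts with no overlap (difference -3.40, SE 0.62, adjusted p = 0.0186), with parts from an abf1 effect of 1.61, a wild-type difference of -1.33 and a rap1 effect of -0.46. The wild types of ABF1 overlapped, and their difference was not called (adjusted p = 0.965). RAP1 had 597, 517 and 790.3 in abf1 ts and 585, 1017 and 1089 in rap1 ts, which overlapped (0.46, SE 0.30, adjusted p = 0.464). Neither transcript checks a ts label, since a ts protein can be made from a normal amount of RNA.

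AFB1, which encodes the a-factor barrier of alpha cells, had 3286, 2046 and 1985 in abf1 ts and 222, 825 and 795 in rap1 ts, and between 524.2 and 869.4 on the wild-type arrays. Only the abf1 ts arrays were high, so its difference of -2.14 (SE 0.44, adjusted p = 0.0285) lay on the abf1 effect of 1.76. The strongest mating-type markers on all 12 arrays were those of a cells. The a-factor genes MFA1 and MFA2 had signals of 6867 to 24628 and 4710 to 20327. The alpha-specific genes STE3 (34.0 to 180.4), MF(ALPHA)1 (82.6 to 205.9) and MF(ALPHA)2 (49.2 to 136.9) were too dim to enter the tests. So was the a-specific ASG7 (88.2 to 334.9). The AFB1 signals of abf1 ts lay within the range of the a-specific STE2 over the 12 arrays (1010.9 to 3303.8). SAG1, the alpha-agglutinin gene, had 242, 474 and 454 in abf1 ts and 108, 338 and 258 in rap1 ts, which overlapped (-0.78, adjusted p = 0.379). Of the 6 a-specific features 0 were called, and their median was 0.28. DAL3, of allantoin breakdown, was the other gene that was lower in rap1 ts mainly through the abf1 effect (1.03). It had 1708, 2812 and 2335 in abf1 ts and 845, 918 and 1245 in rap1 ts (-1.17, adjusted p = 0.0454), and its call was lost whichever single array was left out.

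Among nutritional genes often used as strain markers, LEU2, of leucine synthesis, had 13356, 14808 and 14124 in abf1 ts and 4427, 5082 and 2932 in rap1 ts (-1.80, SE 0.36, adjusted p = 0.0267). The groups lay far apart. Of all 7 such genes on the ts arrays the lowest signal was 416.3, that of ADE2 on rap1 ts array 1. HIS3 was higher in rap1 ts with the block only (0.88, blocked adjusted p = 0.0310, 0.116 without). ADE2 (-1.15, 0.0215 and 0.0944) and MET17 (-1.51, 0.0306 and 0.229) were lower in the same way. URA3 (-0.13), TRP1 (-0.84) and LYS2 (-0.38) were not called with or without it.

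For the stress genes the direct comparison and the difference of the mutant effects had opposite signs. General stress-induced genes had a direct median of -0.61, with 28 of 34 features below 0, and a median difference of effects of 0.33. Heat shock protein genes had -0.25, with 21 of 31 below 0, and 0.44. The respiratory chain and ATP synthase had -0.13 and 0.36. The wild types made up the gap, with medians (rap1 wt minus abf1 wt) of -0.75, -0.57 and -0.42 against -0.11 over all features, although no feature was called between the wild types. Over all features the median difference of effects was 0.13, with 57.6% above 0, against 61.8% of the stress list. With the ACT1 ratio as a covariate the direct medians were -0.11 for stress, -0.14 for heat shock and -0.01 for respiration. In CYC7, the hypoxic isoform of cytochrome c, both differences lay above 0, and the wild types made up the gap between them. Its signals were 1646, 1908 and 778 in abf1 ts and 888, 1621 and 2963 in rap1 ts. They were 1657, 3692 and 1404 in the abf1 wild type and 546, 218 and 749 in the rap1 wild type. The mutants overlapped (difference 0.27, adjusted p = 0.844, and -0.13 without abf1 ts array 3) and the wild types did not (difference -2.16, adjusted p = 0.771), and the difference of effects of 2.43 was called with the block within series (adjusted p = 0.0314). No member of the stress and heat shock lists was called in the direct comparison without a block. With the block 1 of each was lower, against 3.9% of all features. The difference of effects had 1 higher of each with the block within series, against 6.21% of all features.

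Replicate number 1 carried much of the direct shift of these lists. The stress medians were -1.48, -0.26 and -0.18 for numbers 1, 2 and 3, and those of the heat shock list -0.79, 0.25 and -0.11. Without rap1 ts array 1, which had the highest ACT1 ratio, the direct medians were -0.12 for stress, 0.10 for heat shock and 0.13 for respiration.

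**Figure D4:**
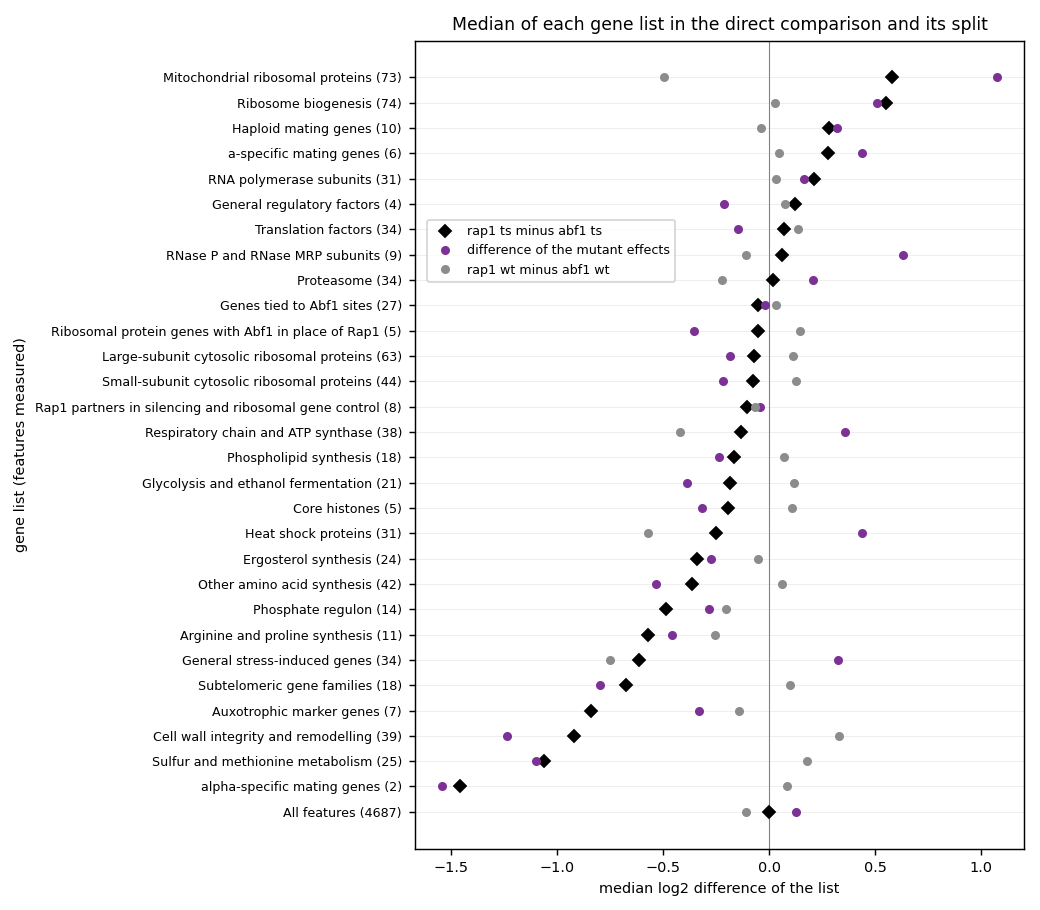
Median log2 difference of 29 gene lists and of all features (x axis), for rap1 ts minus abf1 ts (diamonds), the difference of the mutant effects and rap1 wt minus abf1 wt (circles), with the number of features of each list in brackets. Mitochondrial ribosomal proteins and ribosome biogenesis lie highest at 0.58 and 0.55, sulfur metabolism and the cell wall are among the lowest at -1.06 and -0.92, and in the stress, heat shock and respiratory lists the direct median and the difference of effects lie on opposite sides of 0.

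Glycolysis and ethanol fermentation, a class known for Rap1, had a median of -0.18 with 17 of 21 below 0, 0 called without a block and 4 lower with it, where 3.9% of all features were. The glycolysis medians for replicate numbers 1, 2 and 3 were -0.65, -0.004 and -0.16, and the median without rap1 ts array 1 was -0.04. Its median difference of effects was -0.39, against 0.13 over all features. The phosphate regulon had -0.49 (11 of 14 below 0) and subtelomeric gene families -0.67 (15 of 18 below 0), with 2 and 1 lower by the block, against the same 3.9%, and 1 of the phosphate list, the feature of several genes, was lower without it (0.896% of all features). These medians were -0.33 and -0.40 with the ACT1 ratio as a covariate. Translation factors (median 0.07), the proteasome (0.02) and the 8 partners of Rap1 in silencing and ribosomal gene control (-0.10) had 0 called without a block. The proteasome median was -0.01 with median centring, -0.19 without abf1 ts array 1, -0.08 without rap1 ts array 3 and 0.27 with the ACT1 ratio as a covariate. The median of the Rap1 partners was 0.07 without abf1 ts array 3, 0.02 without rap1 ts array 1 and -0.16 with that covariate, and the median of translation factors was -0.01 without abf1 ts array 1. Ergosterol synthesis (-0.34, 19 of 24 below 0) and the 5 core histone features (-0.19) also had 0 called without a block, and the ergosterol median was 0.02 without rap1 ts array 1 and -0.17 with the covariate.

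Some genes whose mutant effects differed with the block within series were not called between the mutants without a block. In MET6 the difference of effects was -3.60 (SE 0.39, adjusted p = 0.0116), larger than its direct difference because the wild types differed by 1.45. TOS1, a wall protein (-2.82, adjusted p = 0.0260), and PMA1, the proton pump of the plasma membrane (-2.74, adjusted p = 0.0382), followed the same form, with wild-type differences of 0.97 and 1.17. PMA1 had 1447, 9077 and 7632 in abf1 ts and 802, 3462 and 1348 in rap1 ts, groups that overlapped and in which array 1 was lowest on both sides. YBR197C had -2.52 (adjusted p = 0.0331). THI7, the thiamine transporter, had the higher effect in rap1 ts (2.35, adjusted p = 0.0182), with 4601, 793 and 2633 in abf1 ts and 9977, 6420.5 and 4918 in rap1 ts, groups that did not overlap.

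Neighbouring genes were called together in 3 places. The 3 adjacent pairs among the 75 were OPI3 and MOG1 (both lower), CDC10 and MRPL32 (both higher, 1.31 and 2.04), and CMI8 and MRPL28 (both higher, 2.17 and 1.44), and all are divergent pairs that share the stretch between their starts. Over all adjacent pairs with both genes measured, the differences had the same sign in 56.3% of 933 divergent, 51.0% of 1580 tandem and 48.7% of 982 convergent pairs. With the block both members were called in 16 divergent pairs, of which 13 had the same direction, in 12 tandem pairs (7) and in 5 convergent pairs (3). Whether neighbours were called together more often than the share of called features would give was not tested. CDC10, a septin gene, and MRPL28, a mitochondrial ribosomal protein gene, are named here after their values were seen.

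The calls depended on single arrays. Leaving out abf1 ts array 3 left 2 higher and 7 lower features, and leaving out abf1 ts array 1 left 5 and 15. Without abf1 ts array 2 there were 32 and 25, without rap1 ts array 1 5 and 18, without array 2 11 and 28, and without array 3 3 and 24. Of the wild-type arrays, abf1 wt array 3 moved the count of higher features most, to 20. The 2 higher and 7 lower features called in all 12 fits were POP8 and NIT3, and OPI3, ARG1, CPP3, SCP1, GSC2, RPS7B and YMR027W. With the block, leaving out number 3 left 0 higher and 5 lower features, while leaving out number 1 or 2 left 68 and 78 or 72 and 105.

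With the ACT1 ratio as a covariate 5 features were higher and 9 lower, among them 4 of the 33 and 9 of the 42. The 4 were POP8, NIT3, SCS22 and TOM7, and the 9 included OPI3, MOG1, ARG1, SCP1, GSC2 and CPP3 but not RPS7B. TOM7, of the import pore of the mitochondrial outer membrane, is named here after its values were seen. Calls were more frequent among short genes, with no test of that difference: of the 1521 shortest genes, up to 924 bases, 21 were higher and 20 lower, of the 1509 of middle length 7 and 15, and of the 1513 longest, from 1653 bases, 5 and 6. The median differences were 0.02, -0.05 and 0.06.

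**Figure D5:**
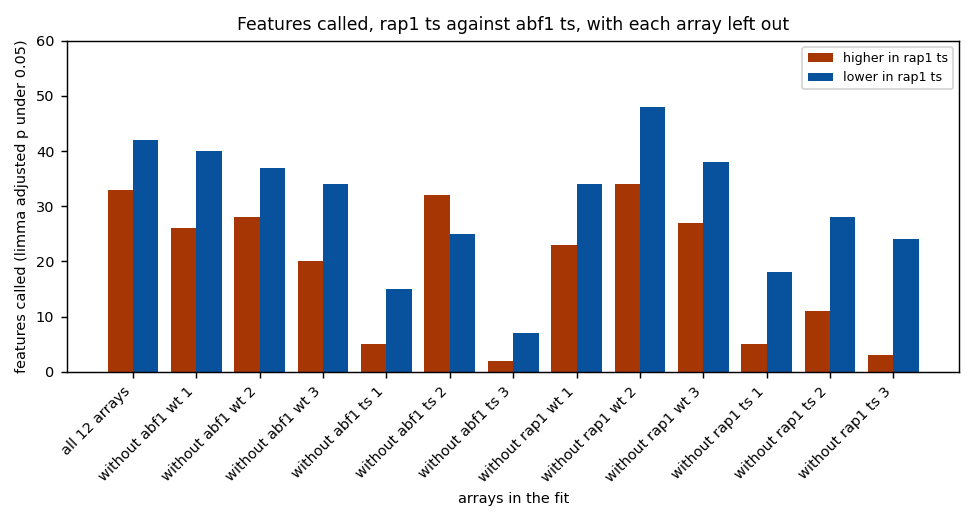
Number of features called in rap1 ts against abf1 ts (y axis, limma adjusted p under 0.05) with all 12 arrays and with each array left out in turn (x axis), higher and lower in rap1 ts as separate bars. All 12 arrays give 33 and 42, and the lowest counts, 2 and 7, come without abf1 ts array 3.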

How the data were processed

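Total RNA of the 12 samples was labelled with biotin and hybridised to 1-colour Affymetrix yeast arrays, per the labels. Per the submitters' processing notes, MAS5 gave the deposited intensity values, 1 per probe set; no version or setting of it is given in the sources used here. Means trimmed by 2% at either end lay between 1500.7 and 1501.3 on all arrays, which shows a scaling to one mean before deposit. Arrays have no read depth, and their number limits the precision. Median signals ran from 390.4 to 598.3, and 2 arrays shared at most 36 identical values.

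Of 9335 probe sets 60 were controls, 6504 named 1 gene, 328 several and 2443 none here, from the platform annotation (0 symbols needed an update). The probe set of highest mean stood for each gene, 13 (the 10th percentile) was added before log2, and features with a mean under the 20th percentile were left out, which kept 4687 of 5859 with a mean log2 value of at least 8.16 (4543 of 1 gene). limma 3.58.1 in R 4.3.3 fitted the 4 group means over all 12 arrays with a variance trend and Benjamini-Hochberg adjustment. Sets of 3 array ratios were compared with exact permutation tests in scipy 1.17.1. The fits were tested on simulated data first.

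Equal replicate numbers were checked for pairing. Deviations from the group means correlated at 0.389, 0.3635 and 0.598 between same-numbered rap1 ts and abf1 ts arrays, and from 0.2497 to 0.824 within the series, all over the minimum of 0.1, so the numbers pair these arrays by the data and not by a statement in the labels. Between the wild types they were 0.0514, 0.5325 and 0.4179, and the correlation of abf1 wt array 1 with rap1 ts array 1 was 0.0342. The block over all 12 arrays therefore also joins arrays of number 1 that the check did not pair, and the fit of the 6 ts arrays with a block, chosen after seeing the data, leaves the wild types out.

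The members, the gene lists and the rule for named genes were chosen with earlier results of these data known. The rule names both factor genes, strain-marker and mating-type genes, up to 12 called genes a direction by fold, up to 8 a direction from the blocked fits and the difference of effects, up to 3 called members a list and up to 4 a class of the split. Gene order and lengths came from a RefSeq gene table, without coordinates, as no build is named for the arrays. A planned description of promoter motifs was not run. Alternatives were quantile scaling, median centring, an offset of 100, no filter, probe set means, no trend, the 6 ts arrays alone, replicate blocks, the ACT1 ratio as covariate and each array left out.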

Additional observations from a re-analysis of the deposited data

Results flagged for a closer look

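The effects of the mutants on their own wild types differed, by a limma test of that difference with the replicate number as a block within series, for 291 features with a higher effect in rap1 ts and 135 with a lower one; without a block there were 0 and 0. The largest higher differences among genes whose pairs did not overlap were 3.25 for CMI8, 2.96 for POP8, 2.67 for MRPL32, 2.67 for SCS22, 2.50 for IMG2, 2.43 for CYC7, 2.40 for RSM27 and 2.35 for THI7 on the log2 scale. The largest lower ones were -4.43 for OPI3, -3.60 for MET6, -2.93 for ATG41, -2.82 for TOS1, -2.81 for ARG1, -2.78 for MOG1, -2.74 for PMA1 and -2.52 for YBR197C. CYC7, THI7, MET6, TOS1, PMA1 and YBR197C were not called between the mutants without a block, and their wild types differed by -2.16, -0.68, 1.45, 0.97, 1.17 and 0.45.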

How the results depend on the processing

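Counts are given as higher and lower in rap1 ts. For rap1 ts against abf1 ts (33 and 42) the replicate block over all arrays gave 254 and 183, a random block within series 20 and 29, the 6 ts arrays alone 7 and 13 (2 and 8 with a replicate block, chosen after seeing the data), the ACT1 ratio as covariate 5 and 9, and quantile scaling 48 and 69. With each array left out the counts ran from 2 to 34 higher and from 7 to 48 lower. With replicate number 1, 2 or 3 left out of the blocked fit they were 68 and 78, 72 and 105, and 0 and 5. The blocked fit gave 296 and 242 under quantile scaling and 228 and 282 with median centring, both chosen after seeing the data, as was leaving out a number. Median centring without a block (33 and 53), an offset of 100 (34 and 43), no filter (30 and 45), probe set means (29 and 39) and no variance trend (34 and 39) kept each count within 1.5 times. The mutant effects (0 and 0 called as different) gave other counts: the replicate block within series gave 291 and 135, that over all arrays 187 and 86 (108 and 117 with quantile scaling, 71 and 184 with median centring), and the random block 310 and 149. Quantile scaling and median centring without a block each gave 0 and 4. Single arrays left out gave 0 to 2 higher and 0 to 2 lower, and numbers 1, 2 and 3 left out of the blocked fit 162 and 96, 14 and 9, and 0 and 0. The wild types (0 and 0) gave 2 lower features without rap1 ts array 1. Signs of the direct log2 difference turned, among the named genes, only for ones not called: URA3 (0.0797 without rap1 ts array 2 in a range of -0.281 to 0.0797 over single arrays left out, 0.175 with the block without number 2), STE2 (from -0.21 without abf1 ts array 1 to 0.455, -0.09 without rap1 ts array 3, -0.0832 with the block without number 1), BAR1 (from -0.0233 without rap1 ts array 3 to 0.591), AGA2 (-0.0395 with the ACT1 covariate) and CYC7 (-0.13 without abf1 ts array 3, from -0.17 without rap1 ts array 3 to 0.696, -0.56 with the block without number 3). The cause of these changes was not tested.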
